A study of Mus musculus with 12 samples.

Results

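The comparison is between 2 hotspot mutants of DICER1, D1709N and G1809R, expressed in the same mouse cells. It covers 6 of the 12 arrays of the series, chosen by their titles: 3 of cells given the D1709N plasmid and 3 of cells given the G1809R plasmid, compared pair by pair within a replicate number. The other 6 arrays, 3 of cells given a GFP plasmid and 3 of cells given wild-type DICER1 (WT), served to estimate the spread and to give levels beside which the mutants could be placed. All 4 groups shared the DKO172 line, which comes from a fallopian tumor of a female mouse, the pLD-hygro-EnVM vector, at 2 µg, and the timing. Cells were plated at 200000 per well a day before transfection, re-plated at 24 h, kept in 300 µg/ml hygromycin for 84 h and harvested at 108 h, per the labels' protocols. The model has limits: it is a single line, each group is a selected and mixed population of transfected cells, and the labels state neither the line's own Dicer1 alleles nor whether the plasmids code for the human or the mouse protein. The labels also do not say whether the 3 replicates were separate cultures, so the p-values cover only how far these arrays spread, and that may be technical spread.

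DICER1 cuts hairpin precursors into miRNAs with a pair of RNase III domains. The RNase IIIa domain releases the 3′ arm of the hairpin, whose product is called 3p, and the RNase IIIb domain releases the 5′ arm, whose product is called 5p. The hotspot residues found in DICER1-associated tumours, many of them of the reproductive tract, lie in the RNase IIIb domain. Residue D1709 helps to hold the metal ions of that catalytic centre. Residue G1809 is not itself a metal-binding residue but a neighbour of one. Both substitutions are known for losing 5p products while 3p products are still made, so the question that this comparison addresses is whether the loss of a metal-binding residue and the change of its neighbour give the same expression profile.

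The miRNAs below are shown because the target lists used further on are built on them, and because they lie on opposite arms of their hairpins. Sequences are those of RefSeq for mouse (GRCm38.p6), 5′ to 3′, with the seed, bases 2 to 8 of the mature miRNA, in capitals. The 4 that come from the 5′ arm, whose cut needs the mutated domain, are let-7a, miR-21a, miR-16 and miR-17:
let-7a-5p: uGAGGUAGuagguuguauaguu
miR-21a-5p: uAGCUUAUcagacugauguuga
miR-16-5p: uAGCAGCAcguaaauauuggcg
miR-17-5p: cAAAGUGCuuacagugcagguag

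The 4 that come from the 3′ arm are miR-29a, miR-101a, miR-200b and miR-221:
miR-29a-3p: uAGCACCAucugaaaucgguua
miR-101a-3p: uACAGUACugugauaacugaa
miR-200b-3p: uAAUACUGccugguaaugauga
miR-221-3p: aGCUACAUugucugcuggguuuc

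The 8 miRNAs carry 8 distinct seeds. The position of an arm is seen in the precursor. In the let-7a-1 hairpin (chr13:48538179-48538272 in GRCm38.p6, minus strand, 94 bases) the mature miRNA, in capitals, is near the 5′ end, and in the miR-29a hairpin (chr6:31062660-31062747, minus strand, 88 bases) it is near the 3′ end:
let-7a-1: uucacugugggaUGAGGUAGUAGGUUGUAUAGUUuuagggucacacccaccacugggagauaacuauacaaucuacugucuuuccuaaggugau
miR-29a: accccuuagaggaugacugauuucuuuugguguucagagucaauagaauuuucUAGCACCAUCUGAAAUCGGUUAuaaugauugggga
These arrays measured messenger RNA and not the miRNAs, so the lists below are read through the targets.

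The share of probes well above background was 68.1%, 57.7% and 49.5% for D1709N replicates 1 to 3 and 69.0%, 62.5% and 61.9% for G1809R. Replicate 1 of each group was on slide 1 and replicates 2 and 3 on slide 2. Levels below are log2 intensities above or below each array's 75th percentile, and a difference is D1709N minus G1809R on that scale. Of the labelled cell identity, the oviduct markers were partly seen: 5 of 8 passed the filter on dim probes, with Ovgp1, an oviduct secretory glycoprotein, and Emx2 well above background on all 6 mutant arrays, while the probe for the Muellerian factor Pax8 did not pass. Only 3 of the 8 were well above background on all 6, and the tested members' medians were low, -4.45 to -2.96. Of 8 gonadal stroma markers 7 passed, all 7 well above background on all 6 mutant arrays, with medians of -0.93 to 0.27. Of 12 epithelial markers 10 passed, 7 of them well above background on all 6 mutant arrays, with low medians of -2.70 to -1.59. Of 13 mesenchymal markers 12 passed, 11 of them well above background on all 6, with medians of 0.22 to 0.62. The keratins Krt8, Krt18 and Krt19 and the mesenchymal genes Vim and Fn1 were well above background on all 6 mutant arrays, and Cdh1, the epithelial cadherin, on 4 of the 6. Of 10 leukocyte markers 4 passed, among them Itgam and Csf1r, with differences of -0.02 to 0.09, and of 8 endothelial markers 3 passed. The single Dicer1 probe is annotated to the mouse gene. Whether it also reads the plasmids is not known, since the species of their DICER1 is not stated. Its level was 0.93, 0.91 and 0.61 with D1709N and 1.17, 0.91 and 0.69 with G1809R.

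The arrays of the mutants resembled each other by replicate number more than arrays of one mutant did among replicates. The SD over genes of the difference between the D1709N and the G1809R array of the same number was 0.32, 0.28 and 0.38, and the correlation across genes lay between 0.9945 and 0.997. For the 6 pairs of arrays of 1 mutant that differ in replicate number the SD was 0.43 to 0.76. Against GFP at the same number the SD was 0.39 to 0.48 for D1709N and 0.40 to 0.41 for G1809R, and against WT it was 0.51 to 0.57 and 0.45 to 0.55. The 3 values between the mutants lie below the values of either mutant against GFP or WT. These distances are descriptions with no test, genes are not independent replicates, and arrays of one number share a slide.

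**Figure D1:**
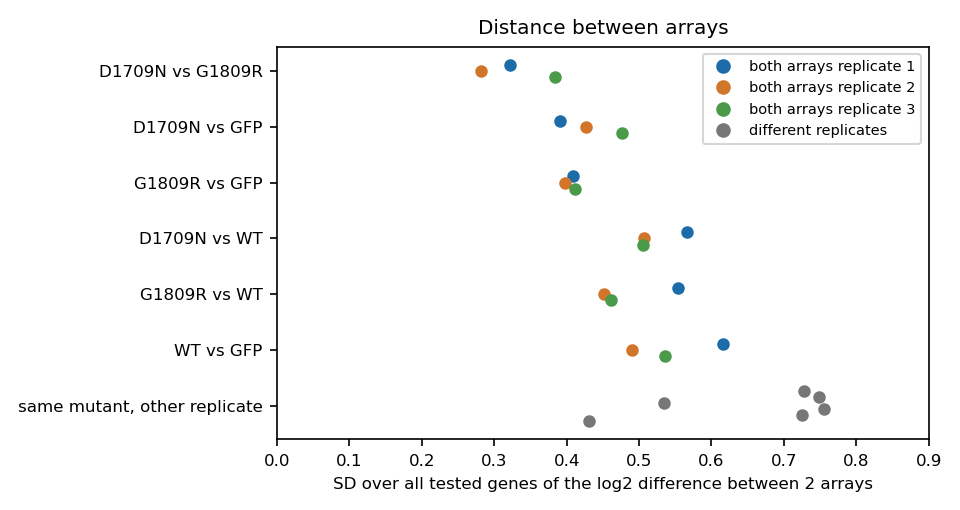
The SD over 24184 genes of the log2 difference between 2 arrays of the same replicate number, for each pair of groups, 1 coloured point per replicate number, and in grey for the 6 pairs of arrays of 1 mutant that differ in replicate number. The pairs of the mutants lie at 0.28 to 0.38, below those of either mutant against GFP (0.39 to 0.48) or WT (0.45 to 0.57).

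Gene by gene, no difference between the mutants was called. With limma on the 12 arrays and the replicate number as a block, 0 of 24184 genes had a Benjamini-Hochberg adjusted p under 0.05 (0% called), and the smallest adjusted p was 0.608. At an unadjusted p under 0.05 there were 1063 genes (4.4%), of which 250 (1.03% of all tested) were higher and 813 (3.36%) lower with D1709N. Without the block 0 genes were called and 65 had an unadjusted p under 0.05. In 3255 genes (13.5%) D1709N was higher in all 3 pairs and in 4508 (18.6%) it was lower in all 3. A missed threshold does not show that the mutants act alike, so the difference of each gene was bounded by its 95% confidence interval.

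For most genes a difference as large as 2-fold lay outside the interval. The median size of the difference was 0.09, and 95% of genes differed by less than 0.46. The median distance from a difference to the end of its interval was 0.27. In 22179 genes (91.7%) the interval lay inside 2-fold, that is between -1 and 1, and in 18573 (76.8%) inside 1.5-fold. By 2 one-sided tests, adjusted over all genes, 22749 genes (94.1%) were bounded within 2-fold and 19453 (80.4%) within 1.5-fold. Without the replicate block, 74.3% of the intervals lay inside 2-fold. An interval is read here for one gene at a time, and among so many genes some intervals miss the true value.

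How tight the bound was depended on brightness. The mutants' mean level splits the genes into 4 groups of 6046: in the dimmest 71.8% of the intervals lay inside 2-fold, in the next 96.7%, then 98.9%, and in the brightest 99.4%. For 1.5-fold the shares were 32.6%, 83.0%, 95.1% and 96.5%. Among the 20316 genes well above background on all 6 mutant arrays, 19730 (97.1%) were inside 2-fold and 17747 (87.4%) inside 1.5-fold, and the one-sided tests bounded 98% and 90.2% of them. The 3868 others held 74 of the 100 genes whose difference reached 2-fold, and their median difference was -0.17 against 0.0004 for the bright genes. A gene passes the filter when 1 group alone is well above background. A dim gene can therefore enter through the mutant in which it is higher. D1709N replicate 3 had the lowest share of probes well above background of the 6 arrays, 49.5% against 61.9% for its partner, and the part of this gap in the lower values of the dim genes was not tested.

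**Figure D2:**
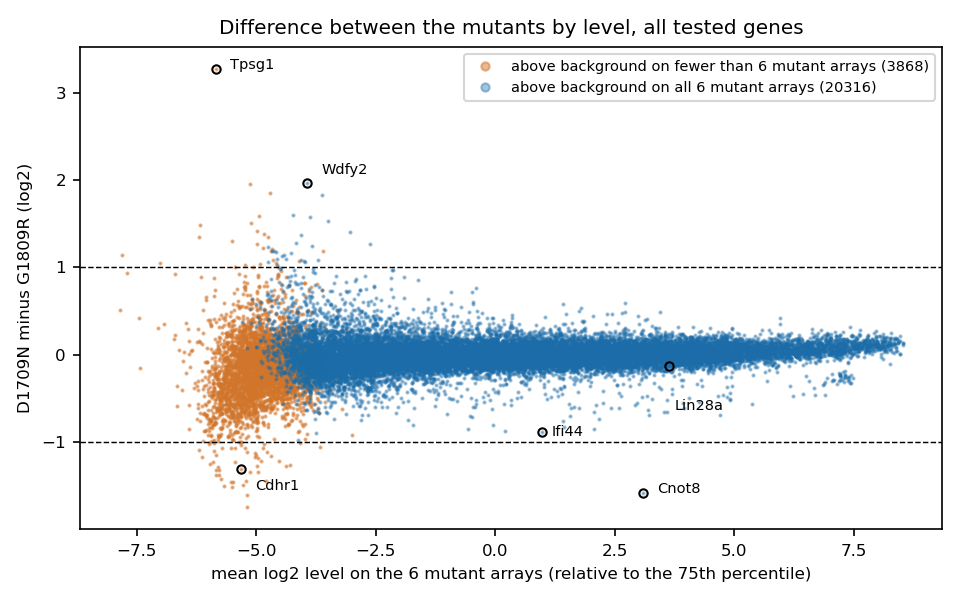
The D1709N minus G1809R difference (log2) of each gene against its mean log2 level in the mutants, with dashed lines at 2-fold. Genes well above background on all 6 mutant arrays are in blue and the others in orange. Tpsg1, Cdhr1, Ifi44, Wdfy2, Cnot8 and Lin28a are ringed. The spread is widest on the left, where signals near background lie, and narrows to a 95th percentile of 0.20 among the brightest 6046 genes.

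Targets of let-7, the family that the 5p arm is best known for, were close to equal in the mutants. Of 44 listed targets 41 were tested, and their median difference was -0.01, as it was over all genes. The intervals of 39 lay inside 2-fold, as did 97.1% of the genes well above background on all 6 mutant arrays. Lin28a, which codes for the RNA-binding protein that blocks let-7 maturation and is itself a let-7 target, was at 3.95, 3.64 and 3.14 with D1709N and 4.12, 3.62 and 3.38 with G1809R. The arrays of the mutants overlapped, and the difference was -0.13 with a 95% interval of -0.34 to 0.07. Against WT, Lin28a was higher by 2.47 with D1709N (limma adjusted p = 3.3e-05) and by 2.60 with G1809R (adjusted p = 2.13e-05). The interval between the mutants is short beside the distance of either from WT.

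Its paralog Lin28b was at 2.45, 3.30 and 2.89 with D1709N and 2.55, 3.20 and 2.50 with G1809R. The difference was 0.13 (interval -0.24 to 0.51), beside values of 1.93 and 1.80 against WT. Against GFP, Lin28b fell by 0.76 with D1709N (limma adjusted p = 0.0408) and by 0.89 with G1809R (adjusted p = 0.0291). Neither fall against GFP was called without the block (adjusted p = 0.466 and 0.449). The mutants overlapped for both Lin28 genes and neither was the higher in all 3 pairs.

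The oncofetal let-7 targets differed little. Hmga2, a chromatin protein of embryonic growth, was at 2.86, 2.93 and 2.67 with D1709N and 3.13, 2.77 and 2.65 with G1809R, a difference of -0.03 (interval -0.37 to 0.30). Igf2bp1 and Igf2bp2, RNA-binding proteins of fetal tissue, differed by 0.06 (-0.18 to 0.29) and -0.01 (-0.20 to 0.18). Nr6a1, an orphan nuclear receptor of germ and embryonic cells, differed by -0.14 (-0.47 to 0.18), while it stood 2.23 (D1709N) and 2.38 (G1809R) above WT. Igf2bp3 differed by 0.18 (-0.37 to 0.74) from low signals. Trim71, a ubiquitin ligase of early development, had the widest interval of these, -1.04 to 0.84, which reaches just past 2-fold. Its difference was -0.10, and its other probe gave 0.30.

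Other 5p targets included genes near 0 and a few that were lower with D1709N in all 3 pairs, none of them called. Wee1, the kinase that holds CDK1 inactive, was at 1.42, 1.28 and 1.27 with D1709N and 1.67, 1.48 and 1.48 with G1809R. Those values did not overlap, the difference was -0.22 (interval -0.41 to -0.04), and the limma adjusted p was 0.974. Reck, a matrix metalloproteinase inhibitor and miR-21 target, differed by 0.09 (-0.25 to 0.43). Tnrc6a, a silencing partner of Argonaute, differed by 0.06 (-0.17 to 0.30). Hic2, a transcription repressor and let-7 target, was at 1.32, 1.33 and 1.13 with D1709N and 1.72, 1.70 and 1.42 with G1809R, without overlap. Its difference was -0.36 (-0.52 to -0.19, adjusted p = 0.799), and taking the median of the gene's probes made it -0.19. Notch1, a receptor listed among miR-34 targets, had the widest difference of all 5p targets, -0.62 (-1.09 to -0.14), with -0.77, -0.56 and -0.51 in the 3 pairs and an adjusted p of 0.974. Over the 107 tested 5p targets the median difference was -0.01, the intervals of 104 lay inside 2-fold and those of 97 inside 1.5-fold, against 91.7% and 76.8% of all genes. Of the 107, 102 were well above background on all 6 mutant arrays, and among all genes of that kind the shares were 97.1% and 87.4%. Family by family, the medians ran from -0.08 for the 19 miR-34 targets to 0.04 for the 13 miR-30 targets. In 19 of the 107 D1709N was lower in all 3 pairs and in 11 higher, beside 18.6% and 13.5% of all genes.

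Targets of 3p miRNAs, whose arm the intact RNase IIIa domain releases, were likewise close. Of 87 tested, the median difference was -0.02, and 85 intervals lay inside 2-fold. In the 87, 81 were well above background on all 6 mutant arrays, and 97.1% of all genes of that kind were inside 2-fold. Family by family, the medians ran from -0.04 for the 25 miR-29 targets to 0.02 for the 10 miR-27 targets. Against GFP the list's median was -0.14 with D1709N and -0.14 with G1809R. In that comparison 15 members were lower and 0 higher with D1709N, and 10 lower and 1 higher with G1809R, where 4.25% and 3.74% of all genes were called, 2.49% and 1.98% of them as lower. These comparisons share the GFP arrays. Median scaling of the arrays left 7 and 3 lower, and without the block 12 and 3 genes were called in all, so these counts rest on the paired fit.

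Tet2, a dioxygenase that removes DNA methylation and a miR-29 target, was the panel's 3p target with the widest difference. With D1709N it lay between -0.07 and 0 on the 3 arrays, and with G1809R at 0.43, 0.37 and 0.19. The arrays did not overlap, and the difference was -0.35 (interval -0.60 to -0.11, limma adjusted p = 0.974). Against GFP, Tet2 fell by 1.44 with D1709N (limma adjusted p = 0.00157) and by 1.08 with G1809R (adjusted p = 0.00807). It was lower than in GFP with both mutants, and the interval of the ratio of D1709N to G1809R ran from 0.661 to 0.928. Without the block the fall with G1809R was not called (adjusted p = 0.13).

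Its relatives Tet1 and Tet3 differed by -0.04 (-0.42 to 0.33) and -0.13 (-0.34 to 0.07), each by its brightest probe. The other Tet1 probe, well above background on 7 of the 12 arrays, gave 2.07, so the bound on Tet1 holds for 1 probe. The other Tet3 probes gave -0.12 and 0.01. Dnmt3a, a DNA methyltransferase and miR-29 target, differed by -0.02 (-0.21 to 0.18). Ezh2, the histone methyltransferase targeted by miR-101, differed by -0.09 (-0.25 to 0.08). The miR-200 targets Zeb1 and Zeb2, repressors of epithelial genes, differed by -0.01 (-0.22 to 0.21) and -0.10 (-0.29 to 0.09). Zeb2 fell by 0.60 and 0.50 against GFP (limma adjusted p = 0.0105 and 0.0222, and 0.188 and 0.346 without the block). Sec23a, a coat protein of the secretory path, was at 0.22, 0.15 and -0.03 with D1709N and 0.15, 0.23 and -0.03 with G1809R. Among the collagens that miR-29 targets, Col1a1 and Col4a2 differed by -0.02 and -0.08. Col3a1, a fibrillar collagen, differed by -1.11 (-1.98 to -0.24, adjusted p = 0.974), from levels of -4.70, -5.88 and -6.68 with D1709N and -3.35, -5.03 and -5.56 with G1809R, near background.

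**Figure D3:**
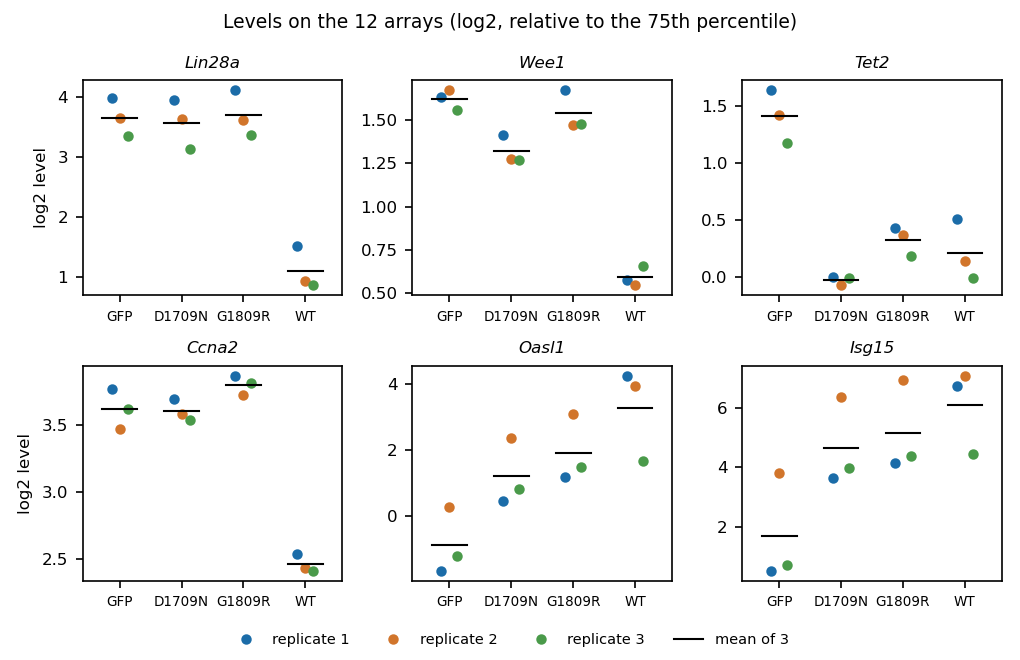
Log2 levels, relative to the array's 75th percentile, of Lin28a, Wee1, Tet2, Ccna2, Oasl1 and Isg15 on the 12 arrays, by group, with 1 point per array coloured by replicate number and a bar at the mean of 3. The points of D1709N and G1809R overlap for Lin28a, Oasl1 and Isg15 and do not for Wee1, Tet2 and Ccna2, where the means differ by -0.22, -0.35 and -0.20.

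The cell cycle genes differed little between the mutants. Of 53 genes of S phase and mitosis, the intervals of 53 lay inside 2-fold and those of 51 inside 1.5-fold, with a median difference of -0.06. All 53 were well above background on all 6 mutant arrays, and among all genes of that kind the shares were 97.1% and 87.4%. Against WT the same list had medians of 0.66 with D1709N and 0.70 with G1809R. In that comparison 42 genes were higher with D1709N and 44 with G1809R, and 0 lower with either, where 7.12% and 6.36% of all genes were called higher. Under every scaling tried the count of higher genes was at least 38 and the count of lower genes 0, and without the block 18 and 20 were called higher. Median scaling shifts the mutants against WT by 0.23 in the median of all genes, which is under the list's medians.

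Ccna2, the cyclin of S phase, was at 3.69, 3.58 and 3.53 with D1709N and 3.87, 3.72 and 3.81 with G1809R. The values did not overlap and the difference was -0.20 (-0.37 to -0.03, limma adjusted p = 0.974). Cdc25a, a CDK-activating phosphatase, differed by -0.06 (-0.26 to 0.13). E2f2, a transcription factor of S phase entry and let-7 target, was at 2.31, 1.63 and 1.82 with D1709N and 2.40, 1.53 and 1.88 with G1809R. Its difference was -0.02 (-0.30 to 0.27), and each mutant stood above GFP, by 0.67 and 0.68, with limma adjusted p of 0.0291 and 0.029 that became 0.606 and 0.647 without the block. Mki67, a marker of cycling cells, differed by -0.05 (-0.29 to 0.19), and the CDK inhibitor Cdkn1a by 0.01 (-0.21 to 0.24). All 22 tested p53 targets had intervals inside 1.5-fold, as did 87.4% of the genes well above background on all 6 mutant arrays.

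Most genes of cell identity and matrix in the panel lay near 0. Vim, an intermediate filament of mesenchymal cells, was at 5.05, 5.29 and 5.89 with D1709N and 5.07, 5.22 and 5.95 with G1809R, a difference of -0.01 (-0.19 to 0.18). Fn1, fibronectin, differed by 0.07 (-0.19 to 0.32), and Ccl2, a monocyte chemokine, by -0.01 (-0.33 to 0.30). Ccl2 stood 1.29 and 1.31 above WT. Cdh1 and the imprinted RNA H19 differed by -0.04 (-0.59 to 0.50) and -0.22 (-0.60 to 0.17). Other probes of H19, well above background on fewer arrays, gave -0.38 to 1.03. Foxl2, Wt1 and Gata4, transcription factors of the gonadal stroma, differed by 0.15, 0.09 and -0.07. Krt18 differed by 0.19 and Krt8 by 0.17. The wider lists held larger differences in dim genes, among them Col3a1 (above), the tight junction gene Cldn4 at -0.45 (-0.92 to 0.01), Hoxa9 at -0.31 (-0.63 to 0.02) and the smooth muscle actin Actg2 at 0.31 (-0.32 to 0.94). Cldn4 passed the filter on dim probes through G1809R alone, the mutant in which it was higher. Of the collagen and matrix genes 15 of 21 intervals lay inside 1.5-fold, and of the smooth muscle markers 5 of 9.

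Over the panel of 44 genes, 42 were tested, 0 were called and 33 had intervals inside 2-fold. Each gene was read by its brightest probe. The probes of the growth factor Igf2 and of Pax8 did not pass the filter. By role, 10 of 11 5p targets, 10 of 10 3p targets, 6 of 6 cell cycle genes and 7 of 7 identity genes were inside 2-fold. Of the 8 interferon genes, 0 were. By the one-sided tests 34 of the 42 were bounded within 2-fold, Trim71 among them (limma adjusted p = 0.0319), and the 8 interferon genes were not.

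**Figure D4:**
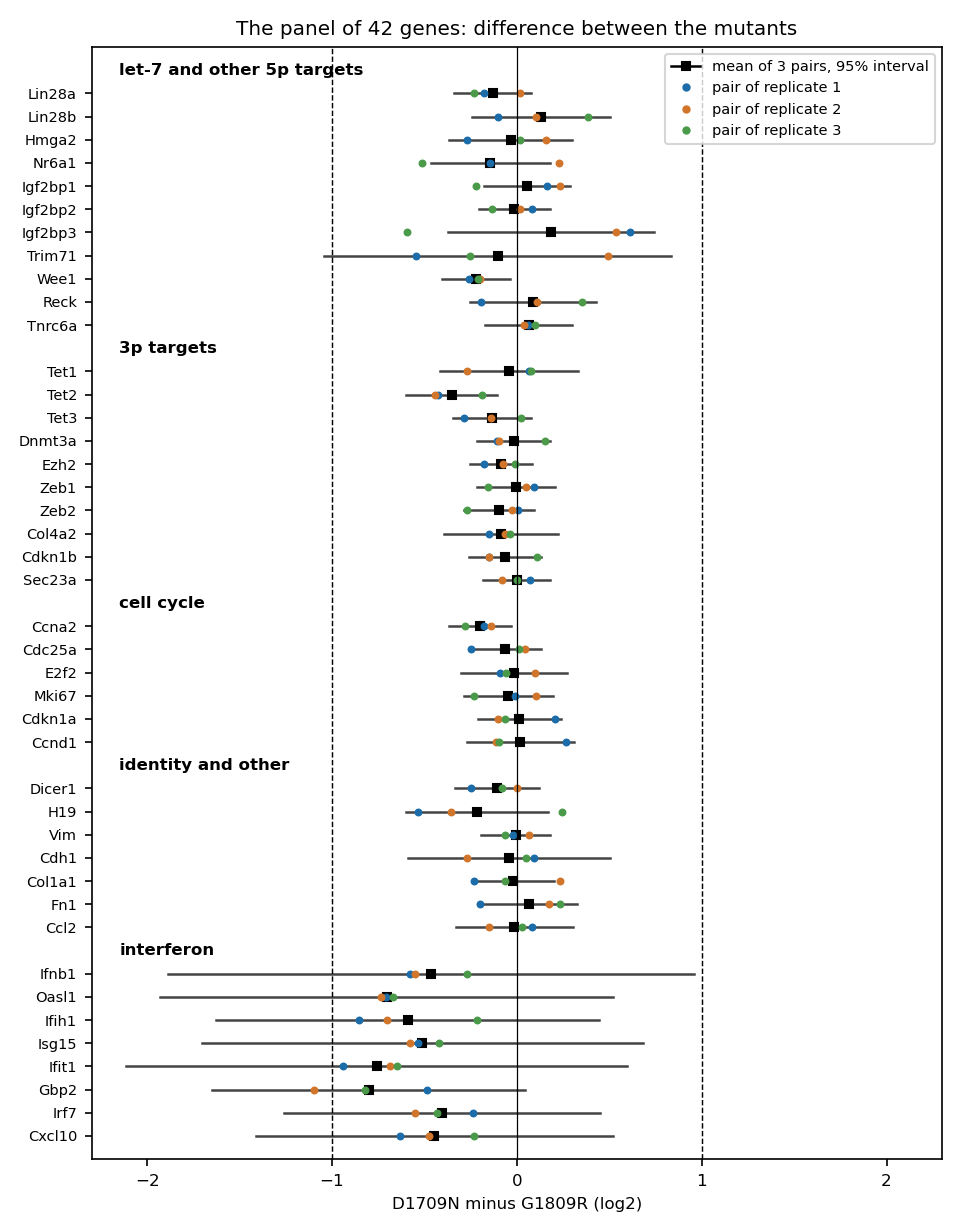
The D1709N minus G1809R difference (log2) of the 42 tested panel genes, as the mean of 3 pairs (square) with its 95% interval and the value of each pair (coloured points), ordered by role, with dashed lines at 2-fold. The interferon genes lie between -0.80 and -0.41 with intervals that cross -1, and the other intervals lie inside 2-fold except that of Trim71.

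The interferon-stimulated genes were where the mutants lay furthest apart as a list, with lower levels in D1709N. These genes are switched on by type I interferon, which cells make when they sense foreign or misplaced nucleic acids. Of 48 listed, 44 were tested and 40 were well above background on all 6 mutant arrays. Their median difference was -0.455, a 1.37-fold lower level with D1709N, against -0.01 for all genes. The median was -0.53, -0.56 and -0.32 in pairs 1 to 3. In 40 of the 44 (90.9%) D1709N was lower in all 3 pairs, where 18.6% of all genes were, and in 1, Gbp6, it was higher in all 3. Without D1709N replicate 1 the list's median was -0.29. These genes move together, so the count is not that of independent genes.

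No member passed the test. In the fit of the 12 arrays 0 were called and 0 had an unadjusted p under 0.05, and the median distance from their differences to the ends of the intervals was 0.86, against 0.27 over all genes. The spread that sets this width includes the GFP and WT arrays, whose list medians were -1.76, 0.44 and -1.28 for GFP replicates 1 to 3 and 3.28, 3.14 and 0.99 for WT. On the 6 mutant arrays alone, where the members were counted only after the data were seen, 36 members were lower at an unadjusted p under 0.05, where 6.07% of all genes were, and 1 was higher, where 2.29% were. There the smallest adjusted p over all genes was 0.327, so 0 were called (0%), the median distance to the interval's end was 0.25, and 35 of the 44 intervals lay inside 2-fold. In the main fit 13 of the 44 were inside 2-fold and 5 inside 1.5-fold.

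These genes differed more between replicate numbers than between mutants. The list's median level was 0.24, 2.40 and 0.35 on the D1709N arrays 1 to 3 and 1.05, 2.95 and 0.87 on those of G1809R. Replicate 2 was the highest in both, and the ranges of the mutants overlapped, with G1809R above D1709N at each number.

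Isg15, a ubiquitin-like modifier, was at 3.63, 6.36 and 3.96 with D1709N and 4.16, 6.94 and 4.38 with G1809R. Its difference was -0.51 (-1.70 to 0.68). Ifit1, which binds foreign RNA caps, was at 0.01, 2.83 and 0.28 with D1709N and 0.95, 3.52 and 0.92 with G1809R, a difference of -0.76 (-2.11 to 0.60). Ifi44 had the widest difference of the list, -0.88 (-2.31 to 0.54), with -0.99, -0.82 and -0.84 in the pairs. In each of the 3 genes the partner arrays kept their order although the levels differed by over 2 log2 units between replicates.

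Among the sensors and synthases, Ifih1, the double-stranded RNA sensor MDA5, differed by -0.59 (-1.62 to 0.45). Oas3 and Oasl2, of the oligoadenylate synthetase family, differed by -0.88 and -0.85, and Oasl1 by -0.70 (-1.93 to 0.52). Ifnb1, interferon beta itself, was at -4.70, -4.43 and -4.13 with D1709N and -4.12, -3.88 and -3.86 with G1809R, a difference of -0.46 (-1.89 to 0.96). The factors Irf7, Stat2 and Irf9, which carry the response to the genes, differed by -0.41, -0.33 and -0.18. The GTPase Gbp2 and the chemokine Cxcl10 differed by -0.80 (-1.65 to 0.04) and -0.45 (-1.41 to 0.52). Some members lay near 0, among them Irf1 at -0.03, Iigp1 at 0.02 and Ifit2 at -0.11.

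Beside GFP, the list stood higher in both mutants. Its median was 1.41 with D1709N and 2.01 with G1809R, and 13 and 30 of the 44 were called higher, 0 lower, where 1.76% and 1.75% of all genes were called higher. Under the other scalings the counts ran from 8 to 24 with D1709N and from 22 to 36 with G1809R, and without the block 0 members were called with either mutant. The unequal counts do not show a difference, since the difference itself was the comparison above, in which 0 were called. Without the block, Isg15 was called with neither mutant (limma adjusted p = 0.607 with D1709N and 0.558 with G1809R, in place of 0.0235 and 0.0167). In WT against GFP the median was 2.95, with 38 called higher. Set against WT, the list's median was -1.09 with D1709N, with 15 called lower, and -0.65 with G1809R, with 2 called lower, where 8.42% and 6.31% of all genes were. The other scalings gave 9 to 28 and 0 to 3 lower, and no block gave 0 and 0. Of the 10 leukocyte markers, the 4 that passed had a median level of 1.78 to 2.11 on the D1709N arrays and 1.69 to 2.13 on those of G1809R, and Ptprc did not pass. Their median difference was 0.03.

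**Figure D5:**
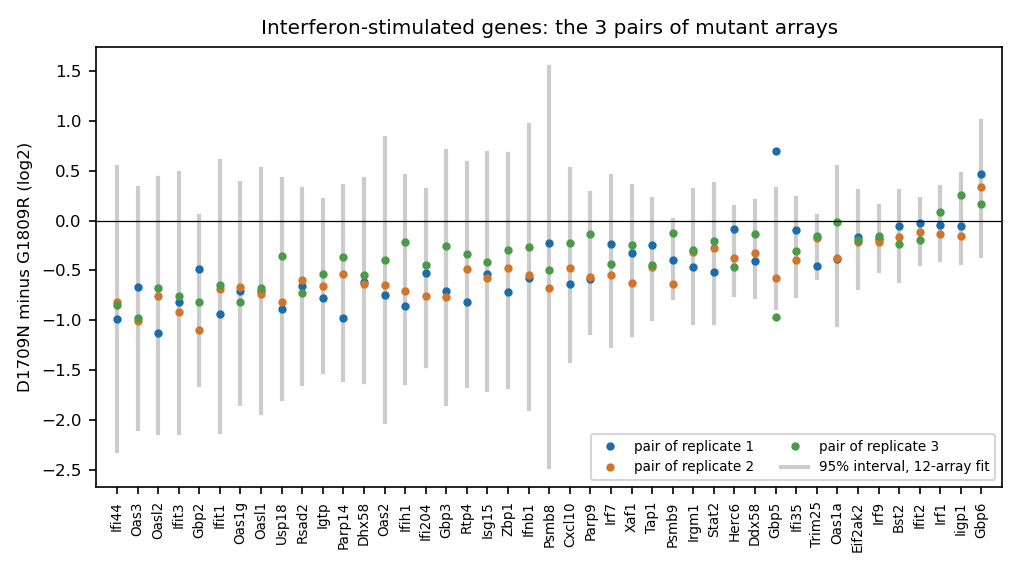
The D1709N minus G1809R difference (log2) of the tested interferon-stimulated genes, with 1 of the 44 not drawn, in each of the 3 pairs, 1 point per gene and pair, with grey bars for the 95% intervals of the fit of 12 arrays. Nearly all points lie below 0, and over the whole list the medians of the pairs are -0.53, -0.56 and -0.32.

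Other lists lay near 0. Of 33 lists, 30 had a median difference within 0.1 of 0. Besides the interferon genes, the exceptions were the endothelial markers, at -0.28 over 3 genes of which Vwf was the widest at -0.40, and the ribosomal proteins, at 0.11. Of 24 ribosomal protein genes, 15 were higher with D1709N in all 3 pairs and 0 lower, where 13.5% and 18.6% of all genes were, and the intervals of all 24 lay inside 1.5-fold. The 779 tested genes above a level of 6.5 had a median difference of 0.09, and the part of this in the ribosomal genes was not tested. Rpl10, the widest, was at 8.08, 8.41 and 8.42 with D1709N and 7.78, 8.36 and 8.16 with G1809R, a difference of 0.20 (-0.03 to 0.43). All 22 listed factors of miRNA processing and silencing were tested, with a median of 0.04 and 20 intervals inside 1.5-fold. Dgcr8, the partner of Drosha, was the widest there at -0.17 (-0.38 to 0.03). The 22 genes of cholesterol synthesis had a median of -0.02, and 19 of their intervals lay inside 1.5-fold. Of 19 genes of amino acid and ER stress, with a median of 0.01, Slc7a11, the cystine transporter, was the widest at 0.35 (-0.28 to 0.98), most of it from pair 3. The TGF-beta response and the Wnt targets, with Wif1 the widest of the latter at -0.31, had medians of 0.07 and 0.06. Genes of hypoxia and glycolysis had a median of 0.08, with 8 of 24 higher in all 3 pairs and 0 lower, beside the same 13.5% and 18.6%. Slc2a1, the glucose transporter, was the widest there at 0.27 (-0.32 to 0.87). In the list of NF-kB and inflammation genes the widest was Icam1, an adhesion molecule, at 1.49 (0.02 to 2.95, adjusted p = 0.974), from signals near background with pairs that rest on -5.31, -6.10 and -4.90 with D1709N and -7.24, -8.47 and -5.07 with G1809R.

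Genes chosen for moving with the mutants in common differed between the mutants, in the median, by as much as all genes did. Those with the largest common changes differed more. The mean of the mutants against GFP is uncorrelated in its estimate with the difference between them, and 1855 genes (7.67%) were called in it, 831 (3.44%) higher and 1024 (4.23%) lower, or 20 without the block. Under median scaling the calls numbered 970, of which 34.2% were higher in place of 44.8%. The median size of the mean change in the 1855 genes was 0.50, a value raised by their selection. That of the difference between mutants was 0.09, as it was over all genes. In all 1855 the interval of the difference left out the value expected if 1 mutant alone had made the change. In 1680 (90.6%) the whole interval was smaller than the mean change. These genes were called for a change that is large beside the same spread, so the intervals had to be short against it. With no difference called in any gene, the selection largely set both counts, and they add little to the bounds above.

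Of the 229 genes whose mean change against GFP was 2-fold or more, the median size of the change was 1.42. That of the difference was 0.35, against 0.09 over all genes, and 117 (51.1%) had intervals inside 2-fold, against 91.7% of all genes. The rises with the largest mean were Oasl2, Isg15, Ifi44, Rtp4 and Ifit1, all of the interferon response. The 5 largest falls were of dim genes. Gjb2, a gap junction protein, fell by 1.79 and 1.99 and differed by 0.20 (-0.60 to 1.00) between the mutants. Htr2c, a serotonin receptor, fell by 1.80 and 1.72 and differed by -0.08 (-0.79 to 0.62). Mgat4c, a glycosyltransferase, fell by 1.70 and 2.27 and differed by 0.58 (0.00 to 1.16). None of these falls was called without the block. Tlcd4 was not well above background on any of the 6 mutant arrays, and its values there are bounds.

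The mean of the mutants against WT called 4713 genes (19.5%), 2305 (9.53%) higher and 2408 (9.96%) lower, or 872 without the block. Median scaling turned this balance, with 6811 called and 86.4% of them higher in place of 48.9%. In 4709 of the 4713 the interval of the difference left out a change by 1 mutant alone. As above, the selection largely set this count. Intervals inside 2-fold were found in 4533 (96.2%), beside 91.7% of all genes. In the 4300 genes (17.8%) called in WT against GFP, which uses none of the mutants' arrays, 94.7% of the intervals lay inside 2-fold. Here too the share of all genes was 91.7%. Higher in WT were 9.18% of all genes and lower 8.6%, so that 51.6% of the calls were higher, in place of 12.9% with median scaling.

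The genes with the smallest p were mostly dim. Among the 100 smallest, 27 were well above background on all 6 mutant arrays, beside 84% of all genes tested. Lower with D1709N were 78, beside 813 of the 1063 genes at an unadjusted p under 0.05. Cdhr1, a protocadherin, had the smallest p, with -4.85, -6.46 and -6.59 with D1709N, above background on 1 array, and -3.44, -5.46 and -5.08 with G1809R, above it on 3. The difference was -1.30 (-1.70 to -0.91, limma adjusted p = 0.608), and with another background correction (normexp) it was -0.11. The gene with the largest difference was Tpsg1, a mast cell tryptase, at -3.29, -5.14 and -4.22 with D1709N and not well above background on any G1809R array. With each G1809R value raised to at least the lowest signal well above background on its array, Tpsg1 was 4.26-fold higher with D1709N. That lowest signal is not a detection limit of this probe, so the fold is no firm minimum. The fitted difference was 3.27, with a limma adjusted p of 0.716. Leaving out GFP replicate 3, which enters only through the spread, gave an adjusted p of 0.00273, the single call of the alternatives run, and normexp reduced the difference to 0.73. Camk1g and Krtap31-2 differed by -0.67 and -0.91 from signals of the same low range. Cdhr1 and Krtap31-2 passed the filter on dim probes through G1809R alone, and Tpsg1 through D1709N alone. In each of these the mutant that let the gene pass is the one with the higher level. The part of the filter in the direction of the differences was not tested. Camk1g was well above background on all 3 arrays of G1809R, of GFP and of WT.

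Among bright genes with a symbol, picked after the values were seen, the smallest p belonged to Homer1, a scaffold protein of synapses, at -0.27, -0.23 and 0.01 with D1709N and 0.25, 0.30 and 0.26 with G1809R. The difference was -0.44 (-0.64 to -0.24, limma adjusted p = 0.799), and it was 0.02 with the median of the gene's probes. Pi16, a protease inhibitor, differed by 0.99 (adjusted p = 0.974). The widest differences of bright genes rested on 1 pair. Wdfy2 differed by 5.68 in pair 3, from a level of 0.97 on the D1709N array against -4.87 and -4.95 on the other two. Cnot8, a subunit of the deadenylase complex, differed by -4.86 in pair 1, where the D1709N array gave -1.07 against 4.19 and 3.74. Cfap221 and Lat had 4.46 and 3.72 in pair 3. Their intervals, -0.92 to 4.85 for Wdfy2 and -3.89 to 0.72 for Cnot8, held 0.

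A difference of at least 2-fold in the same direction in all 3 pairs was found in 5 genes or transcripts, none of them well above background on all 6 arrays. Tpsg1 was the one higher with D1709N. Gbp7, a guanylate-binding protein of the interferon response, was lower by -2.48, -1.01 and -1.34 in the pairs. At 1.5-fold the count was 87, of which 21 were bright.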

How the data were processed

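RNA (100 ng, extracted with miRNeasy) was labelled with Cy3 and hybridized to single-colour Agilent mouse arrays. Per the file headers, the authors' scanner files hold intensity values made with Agilent Feature Extraction 11.0.1.1, background-subtracted and not scaled between arrays. The deposited value table holds log2 values of 31362 probes; how it was normalized was not given in the sources used here, and it served as an alternative (array medians 9.40 to 9.42, correlation with the scanner values 0.9948 to 0.9999).

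Log2 processed signal was taken relative to each array's 75th percentile over 59305 non-control spots, without 3671 control spots and without outlier spots (287 of 55681 probes dropped). Probes well above background on all arrays of at least 1 group were kept (33024), and the brightest stood for its gene (24184 genes or transcripts, 14732 with a RefSeq symbol). No probe was saturated. The number of arrays limits the precision. Groups came from the titles. limma 3.58.1 in R 4.3.3 (with the package data.table, version 1.17.8) fitted group and replicate number on 12 arrays. Tests were two-sided, with Benjamini-Hochberg adjustment over the genes of a comparison and calls under 0.05, and the procedure was tested on simulated data.

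The numbers pair the arrays: deviations from the group means correlated at 0.853, 0.755 and 0.676 within pairs and at -0.666 to 0.126 across them, and at 0.601 to 0.853 over all 18 same-number pairs. No label says what a number marks beyond the slide.

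Named genes are a panel of 44, those with the smallest p, the 5 largest common rises and falls against GFP and the widest of each list; the bright genes were added after their values were seen. The members and lists were chosen with earlier results of these data known. A spot's mean signal was not used here, so the normexp alternative took median signals, offset 50. The alternatives were scaling, background, filter, block, slide and leaving out each array. A few genes that the rule or the lists name are not reported here.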

Additional observations from a re-analysis of the deposited data

How the results depend on the processing

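The count of genes called between the mutants was 0 under the alternatives tried, except for 0 to 1 when single arrays were left out (1 without GFP replicate 3). The share of intervals inside 2-fold was 74.3% with no replicate block, 88.6% with the slide as a block, 61.9% with no filter on dim probes, 99.1% with normexp, 90.3% on slide 2 alone and 87.7% to 93.4% when single arrays were left out. Of 2576 values of the named genes under alternatives, 2484 moved by less than 1 SE, 91 by more, and 1 became called. These values are differences between the mutants. They cannot move without the block, with the slide as a block, on the mutant arrays alone or without a GFP or WT array. Such settings change only the spread, so the design set part of the 2484, and that count does not measure stability. The interferon list's median stayed below 0, from -0.62 (without D1709N replicate 3) to -0.29 (without D1709N replicate 1). This median too cannot move under the settings that change only the spread.

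The contrasts with the other groups depended on the paired fit more. With no replicate block the mean of the mutants against GFP called 20 genes, the mean against WT 872 and WT against GFP 713. With the slide as a block these were 361, 2211 and 2112, with no filter on dim probes 409, 2755 and 2531, and on slide 2 alone 432, 1859 and 1613. Median scaling gave 970 for the mean against GFP. Leaving out single arrays gave 421 to 2039, 2924 to 4292 and 2328 to 4035, lowest without GFP replicate 2, WT replicate 1 and GFP replicate 3. The cause was not tested. These contrasts have no value on the 6 mutant arrays alone. Signal over background limits the bounds of dim genes.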

Other observations

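Several gene families known from early mouse embryos were looked at after members were seen among the smallest p, and they did not all lie on one side. Of 9 tested members of the Pramel family, 6 were higher with D1709N in all 3 pairs and 0 lower, where 13.5% and 18.6% of all genes were, and the median difference was 0.60 (range -0.01 to 0.85). Pramel39 was at -0.68, -1.75 and -1.12 with D1709N and -1.84, -2.23 and -2.03 with G1809R, without overlap, a difference of 0.85 (interval 0.45 to 1.25, limma adjusted p = 0.799). Pramel37 differed by 0.83 (0.43 to 1.22). Against GFP the family's median was 1.11 with D1709N and 0.62 with G1809R, and WT stood at 1.02. All 3 tested Zscan4 genes, transcription factors of the 2-cell embryo, were higher in all 3 pairs, with a median of 0.48 and Zscan4f at 0.58 (0.11 to 1.05). Of the other families looked at, 0 of 2 Tcstv, 1 of 3 Tdpoz and 0 of 3 Usp17l genes were higher in all 3 pairs, with medians of 0.25, 0.16 and -0.09. None of these genes was called, paralogs of one family can share probes' targets, and the choice of the families rests on the values described.

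Among the 779 genes with a mutant level above 6.5, 38 were lower with D1709N by at least 0.15, down to -0.46, while the median over all 779 was 0.09. Of the 38, 6 had a RefSeq symbol. They too were seen first and described after.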
